A study of Mus musculus with 27 samples.

Results

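The TGF-beta and BMP pathway was examined as a set of 40 genes in histone H3 lysine 4 (H3K4) methylation maps of embryonic mouse hearts. The set was chosen by function and holds 11 ligand genes, 11 receptor genes, 8 Smad genes, 4 Id target genes and 6 modulator genes, out of 22367 coding genes of the GENCODE vM1 annotation on mouse assembly NCBIM37 (mm9). A merged list of H3K4-methylated regions was searched for those that lay in the body of a gene or within 5 kb of its transcription start site (TSS), which gave 697 of 358833 regions. The study compared E11.5 hearts that differ in *Kmt2d*, which encodes an H3K4 methyltransferase. Control hearts were *Tnnt2::Cre;Kmt2d fl/+* and mutant hearts were *Tnnt2::Cre;Kmt2d fl/fl*, and both also carried the mTmG/+ reporter on a C57BL/6 background. Each genotype was represented by 3 pools of 30 hearts, from which 24 of the 27 libraries were made, with an input and a library per H3K4 mark for each pool. The control had itself a floxed copy of *Kmt2d*, although some labels name it WT. Cre was made from the promoter of *Tnnt2*, a gene of heart muscle cells, so the endocardium, epicardium, cushion mesenchyme and blood cells in the same pools were not targets of the deletion.

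Ligands of this family assemble a pair of type I and a pair of type II receptor kinases, and the type I receptor then phosphorylates receptor Smads, SMAD1, SMAD5 and SMAD9 for BMPs or SMAD2 and SMAD3 for TGF-betas and activins. These join SMAD4, enter the nucleus and act on target genes, among which the *Id* genes are classic BMP targets, while SMAD6 and SMAD7 are induced inhibitors that close a feedback loop. In the embryonic heart the pathway is known for myocardial growth and trabeculation through *Bmp10*, for patterning of the atrioventricular canal through *Bmp2* and for the change of endocardium into cushion mesenchyme. H3K4me1 is typical of enhancers, H3K4me3 of active promoters, and H3K4me2 is found at both.

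The deposited lists gave positions only. A region in the H3K4me2-decreased or the H3K4me1-decreased list was called lower in mutant than in control hearts by the authors, and no read count, fold change or replicate value accompanied it. The depth behind each region is therefore unknown, no value could be given per pool, and absence from a list does not show that the mark was kept. The H3K4me1-decreased list held 2730 regions and the H3K4me2-decreased list 6699, and all of them had identical coordinates in the merged list. Marker genes of heart cell types, and of blood, neurons and liver, were looked up in the merged list. The list covered a TSS of 7 of 7 cardiomyocyte, 4 of 4 endocardial or endothelial, 4 of 4 epicardial, 3 of 3 cushion mesenchyme, 2 of 3 erythroid, 2 of 2 neuronal and 0 of 2 liver genes, the exceptions being *Hba-a1*, *Alb* and *Afp*. As 70.4% of coding genes had a covered TSS, and both neuronal genes did, coverage does not show which cells were present. Of the same genes, *Actc1* and *Nkx2-5* of cardiomyocytes, *Twist1* of cushion mesenchyme and the neuronal *Syt1* had a TSS in an H3K4me2-decreased region, and *Ryr2*, *Klf1* and *Hba-a1* had such a region elsewhere. No endocardial, endothelial or epicardial marker had an H3K4me2-decreased region. In all, 4 of the 22 markers with a covered TSS were called there, against 29.2% of coding genes with a TSS in a merged region. Any such region was found in 7 of 25 markers, against 28.7% of coding genes. Only 2 of the 7 cardiomyocyte markers were called at the TSS. With so few genes per class these counts do not separate the cell types, and no difference was tested. H3K4me1-decreased regions were found at the TSS of *Ryr2* and in *Pecam1*, an endothelial gene. The hearts were pooled whole, so a change in cell proportions and a change of the mark within cells cannot be told apart.

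All 40 pathway genes had a TSS inside a merged region, as had 70.4% of coding genes. The pathway regions were wide. The widest TSS region of a gene had a median width of 6870 bp, with a range from 2180 bp at *Smurf1* to 37420 bp at *Smad7*, whereas the median over coding genes was 3720 bp. The width exceeded that median in 34 of 40 genes, and 13 genes belonged to the widest decile of coding genes. In total the genes held a median of 11 regions against 5 for coding genes, and their regions covered 1211700 bp. The map of regions around the TSS shows how most TSS regions lay mainly over the gene. They reached medians of 1389.5 bp upstream and 4914.5 bp downstream of the furthest upstream TSS, against 1147 bp and 2166 bp for coding genes. These regions extended further downstream than upstream in 38 of 40 genes, and in 11295 of the 15066 coding genes whose furthest upstream TSS was covered. For 6 compact genes, *Bmp10*, *Smad7*, *Id1*, *Id2*, *Id3* and *Nog*, the region enclosed the whole gene (15%, against 6.78% of coding genes).

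**Figure D1:**
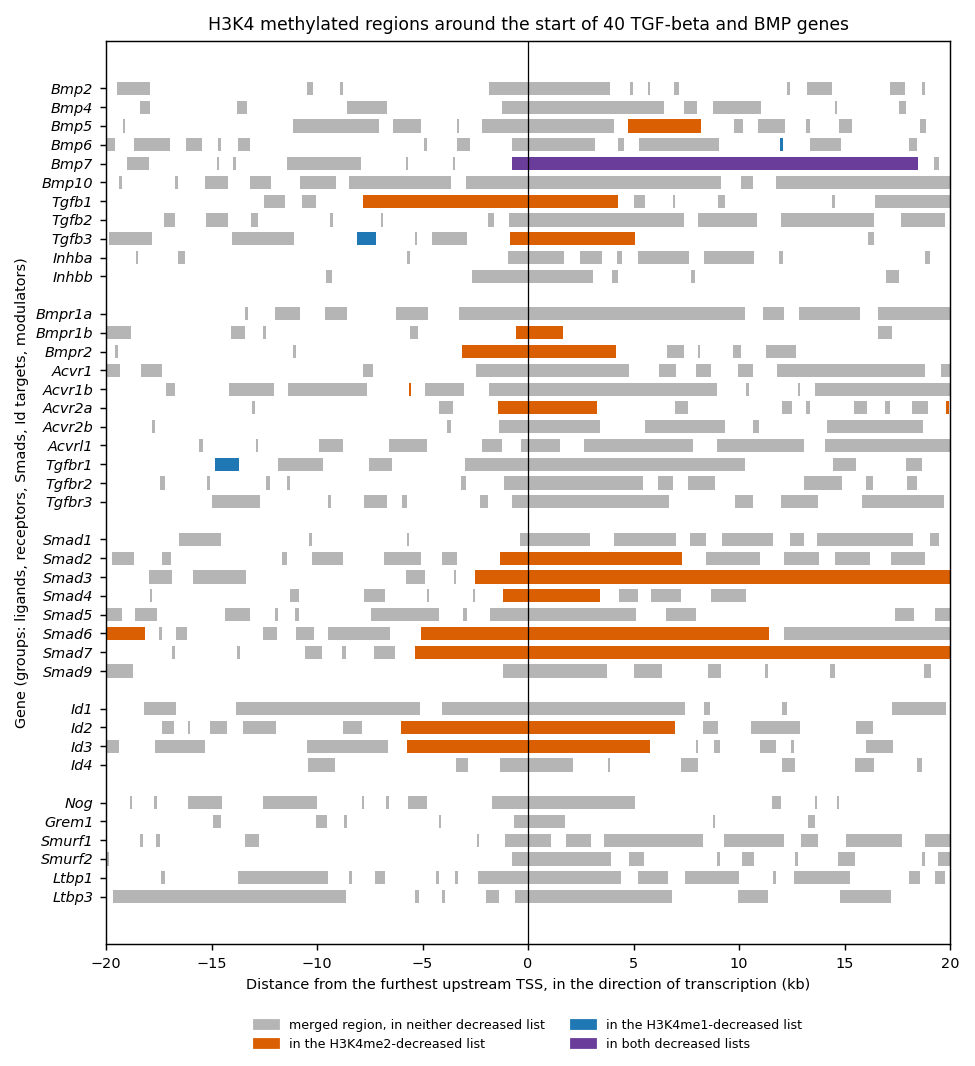
Merged H3K4-methylated regions within 20 kb of the furthest upstream TSS of each of the 40 genes, with distance in kb in the direction of transcription on the horizontal axis and genes grouped by role on the vertical axis. Bars are regions, and the colour gives the decreased list that holds them. Orange bars cross the TSS line in 12 genes and the purple bar of *Bmp7* in 1 more, while all the other genes have a grey bar there. Regions further than 5 kb from a TSS and outside the gene are drawn but were not counted for the gene.

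H3K4me2-decreased regions covered a TSS of 13 of the 40 genes (32.5%). The background was 29.2% of the 15752 coding genes with a TSS in a merged region, so the share in the pathway was close to that of coding genes. Among other coding genes the share rose with the width of the TSS region, from 3.32% in the narrowest decile (60 to 1420 bp) to 48.3% in the widest decile (9220 to 70000 bp). When each pathway gene was given the share found in other coding genes of its width decile, the mean was 39.7%, or 15.9 genes. The 13 genes observed were thus more than the plain background and fewer than the width-based number, and neither difference was tested, since no replicate values exist.

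**Figure D2:**
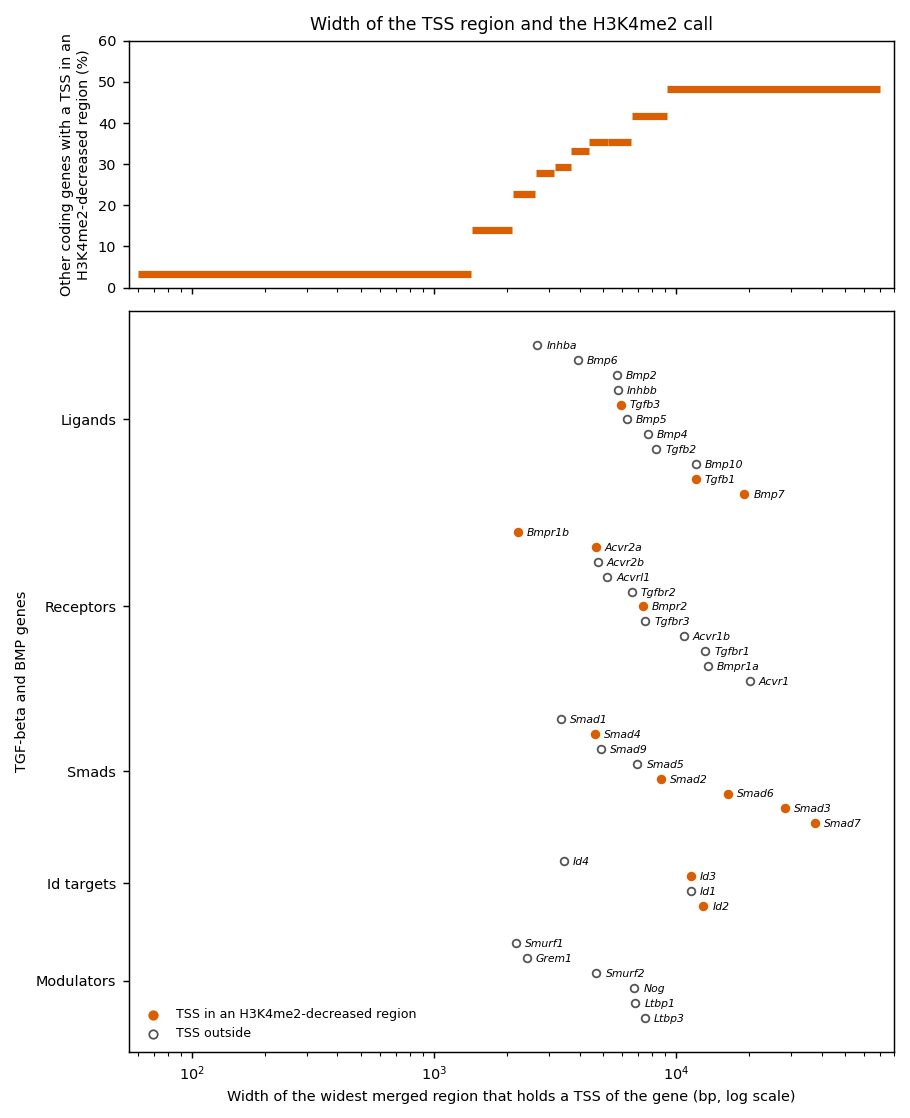
Upper panel, percent of other coding genes whose TSS lay in an H3K4me2-decreased region, for deciles of TSS-region width (bp, log scale). The share rises from 3.32% to 48.3%. Lower panel, the width of the widest TSS region of each pathway gene on the same axis, by role, with filled circles for the 13 genes whose TSS lay in an H3K4me2-decreased region. In the widest decile 7 of 13 genes are filled.

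In the widest decile 7 of 13 genes were in the list, and in the next decile 2 of 10, where the shares of other coding genes were 48.3% and 41.8%. With such shares, called and uncalled genes of like width occur in any set. The following pairs were picked because their calls differed at nearly equal width, and the part of width was not tested. *Id3* with 11540 bp was in the list and *Id1* with 11560 bp was not. *Tgfb1* (12080 bp) was in and *Bmp10* (12060 bp) was not, and the narrow *Bmpr1b* (2220 bp) was in while *Smurf1* (2180 bp) was not.

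Counting any H3K4me2-decreased region in the body or flank gave 17 genes (42.5%), against 28.7% of coding genes with a merged region and a width-based share of 44.2% (17.7 genes). By region, 19 of 697 were in the list (2.73%), where the background over regions of coding genes was 2.69%. These 19 regions held 197380 bp, or 16.3% of the base pairs of all pathway regions, against 12.2% over coding genes. The order against coding genes depended on the width of the regions counted. Among regions of at least 1000 bp the pathway share was 6.15% and the coding share 8.09%. In all, 20 genes had a region in either list and 20 had none. Of coding genes with a merged region, 28.7% had one in the H3K4me2-decreased list, 7.08% in the H3K4me1-decreased list and 2.86% in both. The count for either list was not set against genes of like width. Of 119 annotated TSS of the pathway, 103 lay in merged regions and 29 in H3K4me2-decreased regions, or 28.2% of those in merged regions against 28.7% over coding genes.

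By role, the TSS count was 3 of 11 ligands, 3 of 11 receptors, 5 of 8 Smads, 2 of 4 Id targets and 0 of 6 modulators. The width-based numbers for the same classes were 4.31, 4.48, 3.29, 1.74 and 2.07. Thus the Smads stood above and the modulators below the number given by width, each by about 2 genes. The classes are small and were not tested.

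**Figure D3:**
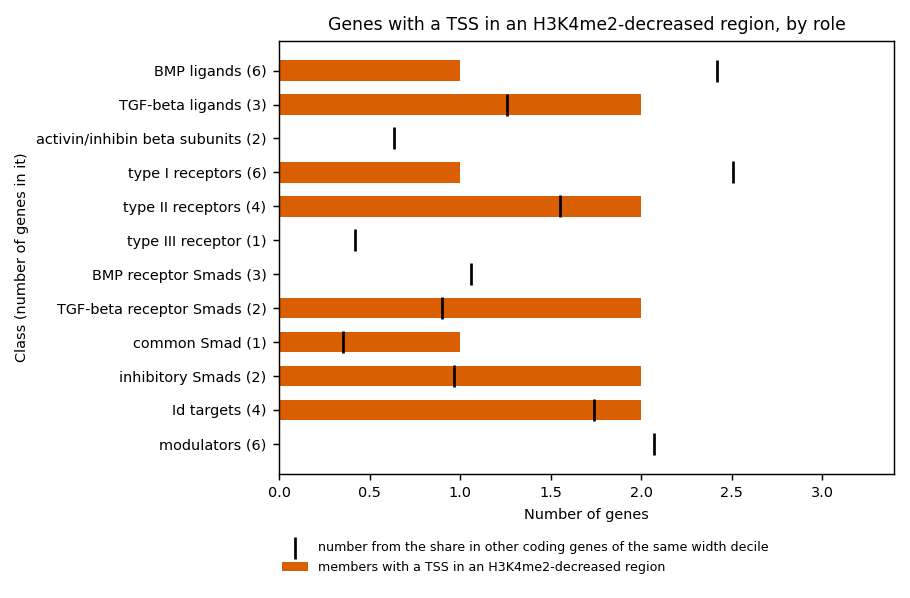
Number of genes (horizontal axis) with a TSS in an H3K4me2-decreased region in each class of the pathway (vertical axis, class size in parentheses), as bars starting at 0. Black ticks give the number obtained from the share in other coding genes of the same width decile. TGF-beta ligands, type II receptors, the Smads other than the BMP receptor Smads, and the Id targets have bars past their ticks, and the other classes stop short of theirs or have no bar.

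Among the ligands, H3K4me2-decreased regions covered the TSS of *Bmp7*, *Tgfb1* and *Tgfb3*, that is 2 of 3 TGF-beta ligands and 1 of 6 BMP ligands. The width-based numbers were 1.26 and 2.42, and no difference between the ligand groups was tested. *Bmp7*, a BMP ligand of the myocardium and other tissues, had the widest TSS region of the ligands, 19220 bp at chr2:172747366-172766585, and this region was in both decreased lists. Only 21 coding genes (0.133% of those with a TSS in a merged region) had a TSS region in both. Genes of like width were not counted for this. The H3K4me1 call alone covered a TSS of 4.89% of other coding genes in the widest decile, against 1.29% of coding genes. The *Bmp7* promoter, shown because it is the only pathway promoter with both calls, was rich in CpG, with 27 in these 250 bases upstream of the furthest upstream TSS (NCBIM37, minus strand, chr2:172765823-172766072). Capitals mark GTCT, the core of a Smad binding element, read on either strand, so that AGAC is the same word on the other strand.

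Bmp7: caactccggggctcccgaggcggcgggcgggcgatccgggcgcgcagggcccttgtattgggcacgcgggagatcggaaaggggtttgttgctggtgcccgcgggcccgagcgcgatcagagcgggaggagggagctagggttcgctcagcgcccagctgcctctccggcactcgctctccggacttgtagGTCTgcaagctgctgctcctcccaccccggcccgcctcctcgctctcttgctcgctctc

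Beyond its TSS, *Bmp7* carried most of the H3K4me1 calls of the pathway. Of its 15 regions 6 were in the H3K4me1-decreased list, and these held 47440 of 55520 bp. Besides the TSS region they were an intronic region of 12800 bp (chr2:172725786-172738585), intronic regions of 5120 and 4000 bp, a region of 2860 bp over an exon and a region of 3440 bp over the 3′ untranslated region (UTR) at the end of the gene. The 9 regions outside the lists held 8080 bp together. The widest of them, 3060 bp, was wider than the called region of 2860 bp. As 1143 of the 1417 coding genes with an H3K4me1-decreased region had a single such region, *Bmp7* was among only 14 with 6 or more. Its total region width exceeded that of 96.7% of coding genes with a region. In the widest decile by total width, 33.3% of other coding genes had an H3K4me1-decreased region. All the same, *Bmp7* had the TSS region alone in the H3K4me2-decreased list.

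*Tgfb1* encodes the founding member of the TGF-beta ligands. Its H3K4me2-decreased TSS region of 12080 bp (chr7:26464186-26476265) lay mainly upstream, 7835 bp before and 4244 bp after the furthest upstream TSS. It held 2 of 3 TSS of the gene and also a TSS of the neighbour *B9d2*, so the call cannot be assigned to either gene. *Tgfb3*, the third ligand of this group, had a region of 5920 bp (chr12:87414906-87420825) that was also assigned to the neighbour *1700019E19Rik*. *Tgfb2*, the isoform known for cushion formation, had a TSS region of 8300 bp in neither list, and its call rested on 100 bp over its UTR (chr1:188447306-188447405). *Bmp10*, a ligand of trabecular myocardium, was covered whole by 12060 bp, again in neither list. Its promoter (plus strand, chr6:87378746-87378995) is set beside that of *Tgfb1* (plus strand, chr7:26471771-26472020), since the regions of both genes were equally wide and differed in the call. The *Tgfb1* promoter held 21 CpG and 75.2% GC, and the *Bmp10* promoter 3 CpG and 52.8% GC. Capitals mark GTCT on either strand.

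Tgfb1: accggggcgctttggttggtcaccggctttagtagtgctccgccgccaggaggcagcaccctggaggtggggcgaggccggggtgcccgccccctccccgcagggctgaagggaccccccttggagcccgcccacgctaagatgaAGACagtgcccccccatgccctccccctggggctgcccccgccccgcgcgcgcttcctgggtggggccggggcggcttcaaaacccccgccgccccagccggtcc
Bmp10: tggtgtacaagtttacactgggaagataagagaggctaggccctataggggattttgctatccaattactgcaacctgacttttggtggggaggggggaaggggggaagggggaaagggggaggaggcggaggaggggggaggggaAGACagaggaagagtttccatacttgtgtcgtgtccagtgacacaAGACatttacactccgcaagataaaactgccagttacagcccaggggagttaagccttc

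For *Bmp5*, a BMP ligand, the H3K4me2-decreased region did not include the TSS but stood next to it. The region of 3460 bp (chr9:75627886-75631345) lay in the intron 640 bp from the uncalled TSS region of 6280 bp. *Bmp6* had an uncalled TSS region of 3940 bp, and among its 46 regions it had an intronic region of 100 bp in the H3K4me2-decreased list and another of 80 bp in the H3K4me1-decreased list. The other 4 ligand genes, *Bmp2*, *Bmp4*, *Inhba* and *Inhbb*, had no region in either list. These include *Bmp2* and *Bmp4*, the ligands of atrioventricular and outflow myocardium, with TSS regions of 5700 and 7680 bp. *Inhba*, which encodes an activin subunit, had the lowest value of the ligands when each gene was taken by its widest TSS region (2680 bp).

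**Figure D4:**
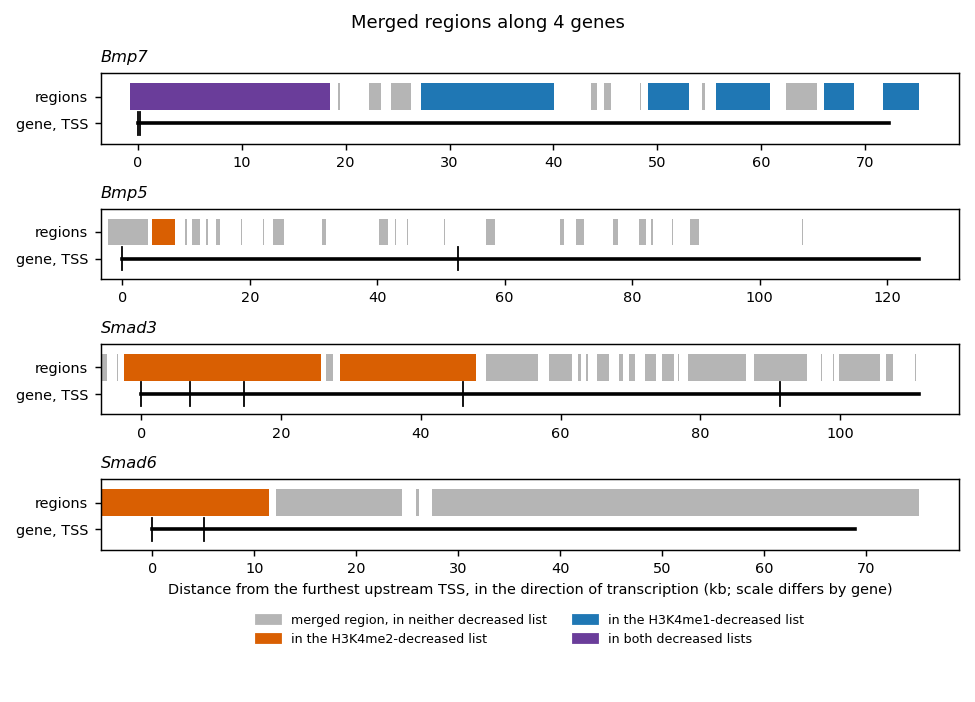
Merged regions (upper row of each panel) and the gene with its annotated TSS (lower row, line and ticks) for *Bmp7*, *Bmp5*, *Smad3* and *Smad6*, with distance from the furthest upstream TSS in kb. Colours give the decreased list. The blue and purple bars of *Bmp7* are its 6 H3K4me1-decreased regions, the orange bars of *Smad3* its 2 H3K4me2-decreased regions, and the long grey bar of *Smad6* a region of 47680 bp in neither list.

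Of the receptors, 1 of 6 type I receptors, *Bmpr1b*, and 2 of 4 type II receptors, *Bmpr2* and *Acvr2a*, had a TSS in an H3K4me2-decreased region. The width-based numbers were 2.51 and 1.55, and no difference between the receptor types was tested. *Bmpr1b*, a BMP type I receptor, had the lowest value of the class when each gene was taken by its widest TSS region, 2220 bp at chr3:141830726-141832945, and it held 2 of the 5 TSS. *Bmpr2*, the type II receptor specific to BMPs, had 7320 bp (chr1:59818346-59825665). *Acvr2a*, a type II receptor for activins and BMPs, had 4680 bp (chr2:48668206-48672885) and also 100 bp in an intron. *Tgfbr3*, the betaglycan coreceptor, had an intronic H3K4me2-decreased region of 2880 bp (chr5:107679386-107682265) but an uncalled TSS region of 7460 bp.

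The widest receptor regions were not in the lists. *Acvr1*, which encodes the BMP type I receptor ALK2, had TSS regions of 20260, 19700 and 7240 bp, the last of which also held a TSS of *Upp2*. *Bmpr1a*, the main BMP type I receptor of the myocardium, had 13580 bp, *Tgfbr1* 13260 bp and *Acvr1b* 10800 bp. None of these TSS regions was in either list. *Tgfbr2*, the TGF-beta type II receptor (6560 bp), and *Acvrl1*, the endothelial type I receptor (5200 bp), had no region in either list as well. H3K4me1-decreased regions of receptors lay away from the TSS, with 680 bp in an *Acvr1* intron, 900 bp from its widest TSS region (chr2:58356206-58356885), 5440 bp over an exon of the type II receptor gene *Acvr2b* (chr9:119331586-119337025) and 140 bp in a *Bmpr1b* intron.

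The Smad genes had the highest share of the larger classes, 5 of 8, and 114780 of the 312480 bp of their regions (36.7%) were in the H3K4me2-decreased list. The share by base pairs over coding genes was 12.2%. Such a share gives most weight to wide regions, and *Smad3* (47600 bp) and *Smad7* (37420 bp) held most of these base pairs. H3K4me2-decreased regions covered a TSS of *Smad2* and *Smad3*, of the common *Smad4* and of the inhibitory *Smad6* and *Smad7*, whereas *Smad1*, *Smad5* and *Smad9* of the BMP branch had none (3340, 6940 and 4920 bp). The TSS regions of the BMP branch were also narrower, and their width-based number was 1.06 of 3 genes. Called and uncalled genes occurred on both sides of the pathway as a whole, since *Bmp7*, *Bmpr1b*, *Bmpr2*, *Id2* and *Id3* were called at the TSS and *Tgfb2*, *Tgfbr1* and *Tgfbr2* were not. No Smad gene had an H3K4me1-decreased region, against a width-based number of 1.99 genes.

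*Smad7*, the general inhibitor of the pathway, lay whole with all 5 TSS in a region of 37420 bp (chr18:75521806-75559225), which ranked 21 by width in the merged list and 13 in the H3K4me2-decreased list. *Smad3* had 2 such regions, of 28160 bp (chr9:63580166-63608325) and 19440 bp (chr9:63557906-63577345), which together held 4 of its 5 TSS and 52.4% of its region base pairs. *Smad6*, the inhibitor that acts chiefly on BMP signals, had 16460 bp with both TSS in the list (chr9:63858466-63874925). Within the same gene a region of 47680 bp (chr9:63794746-63842425), rank 7 of the merged list, was in neither list. The 4 regions of *Smad6* covered 95.2% of the gene. *Smad2* (8660 bp, chr18:76399886-76408545, 4 of 6 TSS) and *Smad4* (4640 bp, chr18:73860006-73864645, 1 of 6 TSS) had ordinary widths for the set.

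*Id1*, *Id2*, *Id3* and *Id4* encode helix-loop-helix proteins that lack a DNA-binding region and block other factors of that kind. The genes are short, between 1160 and 2610 bp, and those of *Id1*, *Id2* and *Id3* lay whole in TSS regions of 11560, 12980 and 11540 bp. Of these, *Id2* (chr12:25773986-25786965) and *Id3* (chr4:135693666-135705205) were in the H3K4me2-decreased list and *Id1* (chr2:152557886-152569445) was not. *Id4* had a narrower region of 3440 bp and no call. The decreased regions of *Id2* and *Id3* thus held 24520 of 40200 bp (61.0%) in this class, against 12.2% by base pairs over coding genes. This share rests on 2 of 6 regions and gives most weight to wide ones. By gene, 2 of 4 were called at the TSS, against a width-based number of 1.74. No *Id* gene had an H3K4me1-decreased region. Their promoters are given because the class is the readout of BMP signalling and was divided by the call (NCBIM37, *Id1* plus strand, chr2:152561737-152561986, *Id2* minus strand, chr12:25780958-25781207, *Id3* plus strand, chr4:135699162-135699411, *Id4* plus strand, chr13:48356546-48356795). Capitals mark GTCT on either strand and GGCGCC, a GC-rich Smad box. These words can share no bases with each other.

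Id1: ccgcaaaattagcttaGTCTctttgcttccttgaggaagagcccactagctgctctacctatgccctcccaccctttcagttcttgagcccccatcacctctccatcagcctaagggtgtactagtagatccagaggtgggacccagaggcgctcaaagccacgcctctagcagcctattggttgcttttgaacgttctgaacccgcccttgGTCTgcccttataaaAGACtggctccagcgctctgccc
Id2: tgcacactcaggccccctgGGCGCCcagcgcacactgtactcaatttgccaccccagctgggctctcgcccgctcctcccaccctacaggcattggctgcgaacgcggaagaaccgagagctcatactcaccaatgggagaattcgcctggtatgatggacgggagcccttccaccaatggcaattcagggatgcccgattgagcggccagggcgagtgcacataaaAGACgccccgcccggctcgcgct
Id3: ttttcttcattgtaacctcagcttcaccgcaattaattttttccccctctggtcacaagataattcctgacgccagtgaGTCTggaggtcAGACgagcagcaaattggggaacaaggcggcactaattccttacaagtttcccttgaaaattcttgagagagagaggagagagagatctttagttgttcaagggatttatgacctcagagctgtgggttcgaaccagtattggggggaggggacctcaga
Id4: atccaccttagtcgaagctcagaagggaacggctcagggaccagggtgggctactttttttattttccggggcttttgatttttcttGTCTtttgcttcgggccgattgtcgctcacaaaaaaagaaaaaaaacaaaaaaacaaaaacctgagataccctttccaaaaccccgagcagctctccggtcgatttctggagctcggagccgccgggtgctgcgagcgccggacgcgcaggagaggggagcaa

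Within these 250 bases GTCT occurred 3 times upstream of *Id1*, 2 times upstream of *Id3* and 1 time each upstream of *Id2* and *Id4*. In the same window GGCGCC occurred only upstream of *Id2*. The uncalled *Id1* thus held the most GTCT words of the 4 there. Bases further upstream were not searched, so a word missing here may lie outside the window. Across the set GTCT was found in the 250 bases upstream of 33 of 40 genes (82.5%), against 81.2% of 15748 coding genes with a TSS in a merged region, and GGCGCC in 11 of 40 (27.5%), against 15.1%. GGCGCC was present in 4 of the 13 genes with an H3K4me2-decreased TSS and in 7 of the other 27. The pathway promoters, taken as 500 bases around the furthest upstream TSS, were GC-rich, with a median GC content of 67.4% and 50 CpG against 61.6% and 35 CpG for coding genes. Median GC content was 70.4% in the 13 genes and 66.6% in the 27, and over coding genes it was 63.2% with and 61.0% without the H3K4me2 call. Within the pathway the CpG measures did not follow this order, as the median count was 50 in both groups. The median ratio of observed to expected CpG was 0.828 in the 13 and 0.858 in the 27 genes. Over coding genes both measures were higher with the H3K4me2 call. The median count was 40 with and 32 without it, and the median ratio 0.829 and 0.697. GC content, CpG content and width moved with the call over coding genes, and their part in the pathway counts was not tested.

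None of the 6 modulators had an H3K4me2-decreased region, against a width-based number of 2.07 for the TSS. They were the BMP antagonists *Nog* (6740 bp) and *Grem1* (2420 bp), the ubiquitin ligases *Smurf1* (2180 bp) and *Smurf2* (4700 bp), which remove Smads and receptors, and the genes *Ltbp1* (6800 bp) and *Ltbp3* (7440 bp), whose products hold latent TGF-beta in the matrix. *Ltbp1* had the most regions of the set, 114 over 112220 bp, and none of them was in either list. *Smurf1* had an H3K4me1-decreased region of 3340 bp in an intron (chr5:145688366-145691705).

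Over the whole set H3K4me1-decreased regions were few at the TSS. They covered a TSS of 1 of 40 genes (2.5%), *Bmp7*, where the background was 1.29% and the width-based number was 0.974 genes. Any such region was found in 6 genes (15%), *Bmp6*, *Bmp7*, *Bmpr1b*, *Acvr1*, *Acvr2b* and *Smurf1*, against 7.08% of coding genes and a width-based share of 18.2% (7.28 genes). Of the 697 regions 11 were in the list (1.58%, background 0.935%), and 6 of these 11 belonged to *Bmp7*, which leaves 5 for the other 39 genes. *Bmp6*, *Bmp7* and *Bmpr1b* had regions in both lists, as had 573 coding genes (2.86%).

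Of the regions in the decreased lists 5 were narrow, 140 bp or less. They were the sole ground for the calls at *Bmp6*, for the H3K4me2 call at *Tgfb2* and for the H3K4me1 call at *Bmpr1b*, while *Acvr2a* was also called at its TSS. The 4 that lay in introns are shown for that reason (NCBIM37, plus strand, with capitals for GTCT on either strand). The H3K4me1 region of *Bmp6* (chr13:38448946-38449025) was similar to 11330 places in the assembly at an identity of at least 80% over at least 50% of its length, itself included. Reads from such a repeat can be placed at several positions, and how the authors treated them was not stated in the sources used here. The H3K4me2 region of *Bmp6* (chr13:38562946-38563045) had no similar place other than itself, nor had the UTR region of *Tgfb2*. The *Bmpr1b* region (chr3:141808046-141808185) had 15 such places, and the *Acvr2a* region (chr2:48689446-48689545) 6. Over its full length, each of the 5 narrow regions, the *Bmp6* repeat included, had no identical place other than itself.

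Bmp6 H3K4me1: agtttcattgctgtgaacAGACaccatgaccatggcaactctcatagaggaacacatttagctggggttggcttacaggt
Bmp6 H3K4me2: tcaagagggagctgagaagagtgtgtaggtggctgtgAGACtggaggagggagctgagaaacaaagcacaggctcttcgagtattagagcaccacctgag
Bmpr1b H3K4me1: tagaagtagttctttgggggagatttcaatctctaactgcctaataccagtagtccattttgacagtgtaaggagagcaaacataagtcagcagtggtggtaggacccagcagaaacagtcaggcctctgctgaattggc
Acvr2a H3K4me2: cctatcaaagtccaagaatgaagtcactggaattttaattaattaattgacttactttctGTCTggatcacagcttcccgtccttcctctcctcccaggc

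A list of 66 other genes of the pathway was described in the same way. A TSS lay in a merged region in 64 of them, all but *Inhbc* and *Inhbe*, and in an H3K4me2-decreased region in 14 (21.9%), against the background of 29.2% and a width-based share of 33.3%. By class these were 3 of 20 other ligands, *Gdf11*, *Gdf15* and the inhibin subunit gene *Inha*, 1 of 8 other receptors and coreceptors, *Cfc1*, and 2 of 16 extracellular modulators, the activin antagonist gene *Fst* and the fibrillin gene *Fbn2*. No width-based number was computed for these classes. The TSS regions of the intracellular modulators had a median width of 10390 bp, within the widest decile, where 48.3% of coding genes were called. In this class 6 of 12 genes were called. These were *Skil* and *Zeb2*, which encode repressors that bind Smads, *Zfyve16*, and *Map3k7*, *Tab1* and *Tab2*, which encode the TAK1 kinase and its partners. The last class held 2 of 10 other targets, the T-box genes *Tbx2* and *Tbx20*. An H3K4me1-decreased region covered the TSS of *Ltbp4* alone (1.56%, width-based share 1.85%), and 5 of the 66 genes (7.58%) had any such region, close to the 7.08% of coding genes.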

How the data were processed

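H3K4me1, H3K4me2 and H3K4me3 ChIP-Seq and inputs were made from the pooled hearts. KMT2D ChIP-Exo (not analysed here) was made from cardiomyocytes derived in culture from mouse embryonic stem cells. The submitters' processing notes name CASAVA 1.8.2, FastQC, Bowtie2, Bowtie and SAMtools with build mm9, without their order. The authors called peaks, merged them over marks and replicates, and deposited the merged list and the decreased lists as BED positions without counts, scores or *P* values. The decreased lists rest on a false discovery rate the authors set. The length of the deposited H3K4me2-decreased list is not the one the study's text gives, and the list was used as deposited. The peak caller and the test are not given in the sources used here. Starts were converted to 1-based. Regions were assigned to genes of GENCODE vM1 (chrM left out) by an overlap of at least 1 bp with the body or the 5 kb around a TSS, and list membership required identical coordinates. Shares of coding genes in the same 1 of 10 width classes, averaged over the members, gave the width-based numbers, without any test and without *P* values, because the lists hold no replicates. Python 3.11.15, numpy 2.4.6, scipy 1.17.1, samtools 1.23.1 and blastn 2.17.0 were used, and promoter sequences were read from NCBIM37. Named were all 40 genes, in full those with a decreased region and those with the widest or narrowest TSS region of a role, other pathway genes with a decreased TSS region, and marker genes without a TSS in a region. Pairs of like width and the genes with a sequence were chosen after their values were seen. The members, lists and alternatives were chosen with earlier results of these data known. Groups were taken from sample titles. Alternatives changed the flank, the TSS set, the minimum width and the width classes.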

Additional observations from a re-analysis of the deposited data

How the results depend on the processing

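The H3K4me2 count at the TSS stayed at 13 of 40 genes and the H3K4me1 count at 1 of 40 with protein-coding transcripts alone, with the furthest upstream TSS alone, with a margin of 1 kb and with minimum widths of 500 or 1000 bp. The share of genes with any H3K4me2-decreased region ranged from 37.5% to 45%, and with any H3K4me1-decreased region from 7.5% to 17.5%. Its low value came from leaving out regions under 1000 bp, which removes *Bmp6*, *Bmpr1b* and *Acvr1*. Shares per region depended on width, and for H3K4me2 so did their order against coding genes. For H3K4me2 the pathway and coding shares were 2.73% and 2.69% as reported, 4.11% and 5.1% over regions of at least 500 bp, 6.15% and 8.09% over regions of at least 1000 bp, and 16.3% and 12.2% by base pairs. For H3K4me1 they were 1.58% and 0.935% as reported, 3.08% and 2.33% over regions of at least 1000 bp, and 4.71% and 2.94% by base pairs. The width-based H3K4me2 share was 39.7%, 40% with 20 classes and 34.6% by total width, and the H3K4me1 share ranged from 2.44% to 2.56%. No paired analysis was possible because the region lists hold no values per library. For the same reason no pool could be left out and no stricter threshold applied, and the unknown depth limits every statement on regions outside the lists.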

Other observations

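Within 30 kb of the furthest upstream TSS, further decreased regions lay outside the gene and its 5 kb flank for 6 pathway genes and entered none of the counts. Upstream of *Smad6* an H3K4me2-decreased region ran from -41019 to -18160 bp relative to the furthest upstream TSS. Downstream of *Id3* an H3K4me2-decreased region lay at 26574 to 38273 bp, and downstream of *Tgfb1* another at 29905 to 32924 bp. H3K4me1-decreased regions were found upstream of *Tgfb3*, 900 bp wide and 7195 bp from its TSS, and upstream of *Tgfbr1*, from -14848 to -13709 bp. An 80-bp H3K4me2-decreased region lay 5571 bp from the TSS of *Acvr1b*. *Tgfbr1* and *Acvr1b*, both type I receptor genes, had no decreased region within the flank, so these were their nearest. Which gene such a distant region acts on is not given by its position. Regions of this kind were chosen after their values were seen and were not set against a background.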
